A study of Mus musculus with 8 samples.

Results

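Polyamine metabolism was followed through 10 genes: Odc1, Amd1, Srm and Sms, which encode the synthetic enzymes, Oaz1, Oaz2 and Azin1, which encode regulators of ornithine decarboxylase, Sat1 and Paox, which encode catabolic enzymes, and Dhps, which encodes the enzyme that uses spermidine to make hypusine. The genes were chosen by name, and all 10 were among the 22829 genes listed. Each also averaged 10 or more normalized counts over the 8 samples, as did 16982 genes in all, so 0 were set aside as low. None of the 10 differed between cells expressing WT-ROR-γt and cells expressing K187R-ROR-γt beyond the spread between samples.

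RNA seq was used to measure transcripts in mouse Th17 cells, 8 samples in all. ROR-γt is the transcription factor that directs T cells to the IL-17-producing Th17 fate, and the K187R form has arginine in place of the lysine that takes up SUMO, a small protein attached to other proteins. In both groups the T cells came from ROR-γt-/- mice and were reconstituted with a lentiviral transgene, WT-ROR-γt in 4 samples and K187R-ROR-γt in the other 4, and then kept under Th17-inducing conditions. The comparison therefore asks whether loss of the SUMO acceptor lysine of ROR-γt goes with a difference in the transcripts of polyamine metabolism. No sample of untransduced cells was compared here, the purified CD4+ T cells were transduced in culture, and the age of the mice was not given in the sources used here. The series design names 4 WT and 4 mutant mice, whereas the study's methods describe transduced cells, and which animal or culture each sample came from is not given in the sources used here. In each group Xist was high in some samples and near 0 in others (values below), so the samples of a group do not all repeat the cells of 1 animal. The p-values measure the spread between these samples, part of which may be technical.

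The polyamines putrescine, spermidine and spermine are small positively charged molecules that proliferating cells need for translation and growth. Ornithine decarboxylase makes putrescine from ornithine, and spermidine synthase and spermine synthase add aminopropyl groups that come from decarboxylated S-adenosylmethionine. Antizymes bind ornithine decarboxylase and send it to the proteasome, and their own synthesis needs a ribosomal frameshift that polyamines promote. In T cells, polyamine synthesis rises after activation, and spermidine is the donor for the hypusine residue of the translation factor eIF5A, a modification linked to the fidelity of helper T cell fates. Much of this control acts on translation and protein stability, which transcript counts do not measure.

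The frameshift sites of the antizyme transcripts are shown because these genes are controlled at this site in translation. The capitals mark TCC followed by the stop codon TGA of the first reading frame, where a part of the ribosomes moves on by 1 base.
Oaz1: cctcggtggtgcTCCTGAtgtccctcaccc
Oaz2: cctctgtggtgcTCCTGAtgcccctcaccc
On GRCm38 the 6 capital bases of Oaz1 lie in an exon on the + strand at chr10:80828292-80828297 and those of Oaz2 in an exon on the + strand at chr9:65686269-65686274. The 30 bases shown were equal in 28 positions and unequal in 2.

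Because the transduced protein is a transcription factor, the promoter windows of RefSeq on GRCm38.p6 were searched on both strands for AGGTCA, the core half-site of ROR factors, and for CACGTG, the E-box of Myc and Max. Windows of 300 bases, 250 before and 50 after a start, were given for 8 of the 10 genes, with 10 windows in all. GGGCGG, also searched, was found in 7 of the 10 windows, against 35.7% of windows of all genes. Both Paox windows, which overlap (chr7:140125407-140125706 and chr7:140125435-140125734), are among the 7, so these are not separate. The 7 windows held 60.3% to 78% G or C, and the G and C content of all windows was not compared. AGGTCA was found in 2 of the 10 windows, 1 of Dhps and 1 of Sms, against 16.3% of 32851 windows of all genes. CACGTG was found in 1 of the 10, the same Sms window, against 7.15% of all windows. The 250 bases before the start are printed for these windows, with CACGTG and AGGTCA or its reverse complement TGACCT in capitals.
Dhps: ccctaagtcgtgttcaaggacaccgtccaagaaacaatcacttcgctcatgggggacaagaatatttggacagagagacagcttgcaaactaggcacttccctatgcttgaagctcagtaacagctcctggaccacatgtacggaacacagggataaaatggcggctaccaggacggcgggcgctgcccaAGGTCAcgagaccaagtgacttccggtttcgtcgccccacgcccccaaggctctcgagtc
Sms: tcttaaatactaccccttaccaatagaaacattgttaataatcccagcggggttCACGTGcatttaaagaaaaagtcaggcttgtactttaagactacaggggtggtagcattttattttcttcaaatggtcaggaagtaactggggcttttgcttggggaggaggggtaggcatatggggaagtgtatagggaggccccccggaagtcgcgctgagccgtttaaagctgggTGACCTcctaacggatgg
The Dhps window is chr8:85071507-85071756 on the + strand, and the Sms window is chrX:157492288-157492537 on the - strand. Counting -1 as the last base before the start, the match in Dhps begins at -60, and those in Sms begin at -196 (CACGTG) and -18 (TGACCT). A match describes these letters only, and no measurement of binding was used here. Sequence outside the windows, such as that more than 50 bases after a start, was not searched. A window without a match therefore does not describe the rest of its gene.

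The samples held 52456804 to 74676721 reads on genes in the WT group and 54260345 to 67827288 in the K187R group, and the 10 genes had between 398 and 29140 reads in every sample. Values are normalized counts, the reads on a gene divided by 1 size factor for the sample. The samples were clustered on variable genes outside the polyamine pathway and cut into 3 sets, a number fixed beforehand, which cross the groups. Set 1 held WT 1, WT 3 and K187R 1, set 2 held WT 2, K187R 2 and K187R 3, and set 3 held WT 4 and K187R 4. Xist and Il17a were not excluded from the genes open to clustering, so their values were not kept apart from the sets. Xist, the RNA that coats the inactive X chromosome, had 13564 to 17373 normalized counts in set 2 and 3.56 to 23.7 in the other 5 samples. The 4 T cell genes Cd3e, Cd3g, Cd4 and Trac were all present, with summed levels of 74570 to 83570 in WT and 76035 to 91376 in K187R samples. The 6 myeloid genes were present too, none at 0, with sums of 20894 to 61673 in WT and 35580 to 64664 in K187R samples, led by the lysozyme gene Lyz2. Of the other lists, 4 B cell genes summed to 203 to 943 in WT and 236 to 1271 in K187R samples, 2 CD8 genes to 403 to 1025 and 387 to 1141, and 3 erythroid genes to at most 45.3 and 61.3. The estimates were higher in K187R samples for all 6 myeloid, 4 B cell and 4 T cell genes, with median log2 fold changes of 0.46, 0.38 and 0.09. They were lower for the 2 CD8 genes (median -0.16) and for 11 of 12 proliferation genes such as Mki67 (median -0.16). Of the genes in these lists, 0 had an unadjusted limma p below 0.05, and their part in the polyamine values was not tested. In samples of mixed cells, fewer cells of a type and less RNA per cell cannot be told apart. Il17a, the gene of the main Th17 cytokine, had a log2 fold change of 0.74 ± 0.246 (SE, n = 4 per group, limma unadjusted p = 0.0141, adjusted p = 0.921). Within sets 1 to 3 its mean log2 differences were 0.76, 0.35 and 0.76, where set 3 holds 1 sample of each group. Every K187R sample was higher than every WT sample of its set, a pattern found in 8.94% of all genes tested. With the set as a factor in limma the estimate was 0.61 (unadjusted p = 6.72e-05, adjusted p = 0.118).

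Across all genes, limma called 0% of the 16982 genes at an adjusted p of 0.05, where the adjustment is Benjamini-Hochberg over all genes tested. An unadjusted p below 0.05 was reached by 4.39% of the genes, and the groups did not overlap for 2.46%. On recovered reads edgeR called 0 genes and DESeq2 27, with 0 of the 10 polyamine genes among them. Of the 10 polyamine genes, 0 had an adjusted p below 0.05, 0 an unadjusted p below 0.05 and 0 groups that did not overlap. The estimate was higher in K187R cells for 5 and lower for 5. The median log2 fold change was -0.01 for the 10 genes and -0.01 for all genes tested, and the median absolute log2 fold change was 0.091 against 0.115. For the 9540 genes that averaged 500 or more normalized counts, as all 10 did, that median was 0.0787. The 95% intervals of the 10 genes ran from -0.39 at the lowest to 0.51 at the highest, and 9 of the 10 lay wholly within 0.5 on the log2 scale of 0, a 1.41-fold difference.

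**Figure D1:**
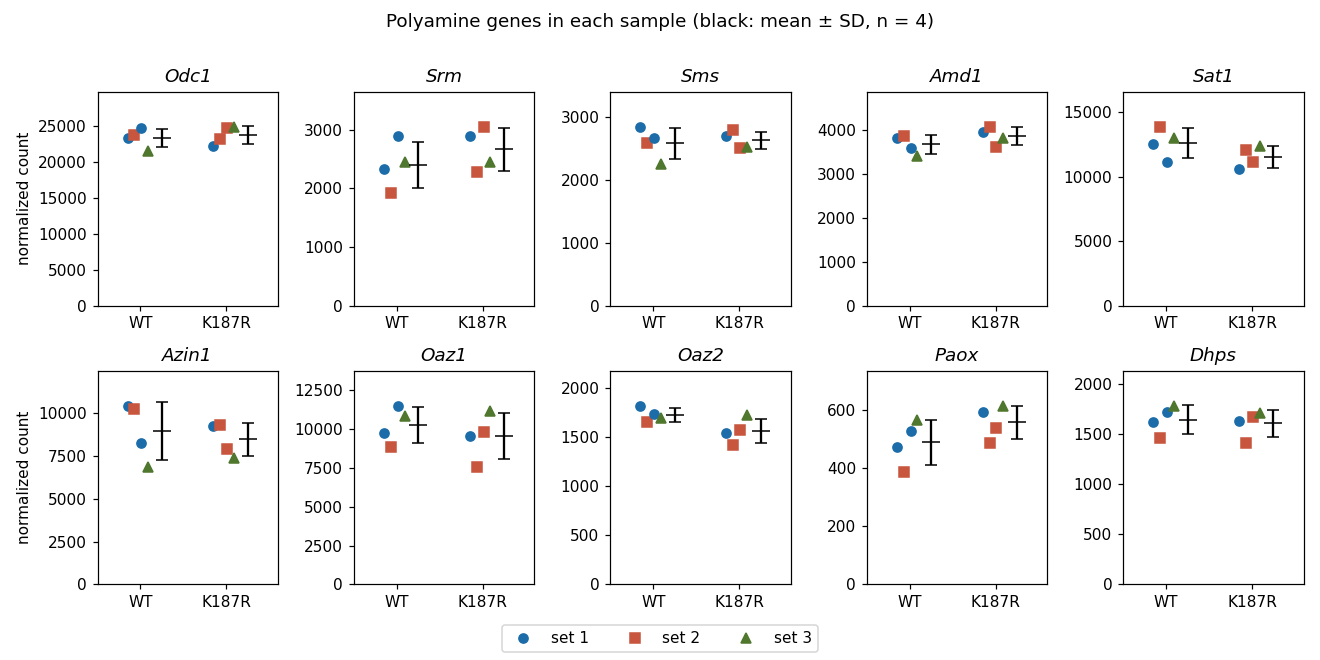
Normalized counts of the 10 polyamine genes, 1 panel a gene, with each point a sample, its shape and colour the set of samples, and the black bar the mean ± SD of 4 samples. The WT and K187R points overlap in all 10 panels, and in ratio the means are nearest each other for Odc1, at 23314 and 23672 normalized counts.

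Odc1, the gene of ornithine decarboxylase (chr12:17544794-17551505, + strand), had the highest level of the 10 genes, also per kilobase of exon, and varied least. Its normalized counts were 23348, 23716, 24644 and 21548 in WT 1 to 4 and 22136, 23123, 24647 and 24782 in K187R 1 to 4. The lowest sample was WT 4 and the highest K187R 4, both of set 3, and the highest was 1.15 times the lowest. With both groups at like levels, the log2 fold change was 0.02 ± 0.070 (SE, n = 4 per group, limma adjusted p = 0.970), with a 95% interval of -0.14 to 0.18. An exact two-sided permutation test, which with 4 against 4 samples has 70 arrangements and cannot go below p = 0.0286, gave p = 0.686.

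Amd1 encodes S-adenosylmethionine decarboxylase, the source of the aminopropyl donor (chr10:40287458-40302186, - strand). Normalized counts were 3818, 3863, 3598 and 3412 in WT and 3956, 4063, 3604 and 3827 in K187R samples. The ranges overlapped, WT 4 being the lowest and K187R 2 the highest, and the log2 fold change was 0.07 ± 0.072 (SE, n = 4 per group, limma adjusted p = 0.923) with a 95% interval of -0.09 to 0.23.

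Srm encodes spermidine synthase (chr4:148591503-148594993, + strand). It had 2337, 1916, 2887 and 2443 normalized counts in WT and 2891, 2272, 3040 and 2450 in K187R samples. Its highest sample was 1.59 times its lowest, the widest range of the 10 genes, and low and high samples were found in both groups. This gave a log2 fold change of 0.16 ± 0.138 (SE, n = 4 per group, limma adjusted p = 0.922; 95% interval -0.15 to 0.47).

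Sms, the X-linked gene of spermine synthase (chrX:157443855-157492287, - strand), had 2833, 2588, 2658 and 2246 normalized counts in WT samples. In K187R samples they were 2692, 2789, 2500 and 2524, all of them between the lowest and the highest WT value. K187R and WT means differed by a log2 fold change of 0.03 ± 0.087 (SE, n = 4 per group, limma adjusted p = 0.970; 95% interval -0.17 to 0.22). Its 3 samples of high Xist had 2588, 2789 and 2500 normalized counts, within the range of the other 5.

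Oaz1, the major antizyme gene, lies on chr10:80826656-80829290 (+ strand). Its normalized counts were 9772, 8849, 11471 and 10835 in WT and 9525, 7588, 9840 and 11167 in K187R samples. K187R 2 was the lowest and WT 3 the highest, with the rest of both groups intermixed, and the log2 fold change was -0.11 ± 0.126 (SE, n = 4 per group, limma adjusted p = 0.926; 95% interval -0.39 to 0.17).

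Oaz2, the gene of the second antizyme (chr9:65668001-65690300, + strand), had 1817, 1652, 1735 and 1692 normalized counts in WT and 1539, 1422, 1572 and 1725 in K187R samples. Of the K187R samples, 1 to 3 were below every WT sample and K187R 4 was above 2 of the 4. Oaz2 had the smallest p of the 10 genes, 0.115 unadjusted in limma, and the exact two-sided permutation test gave 0.0857. The log2 fold change was -0.14 ± 0.082 (SE, n = 4 per group, limma adjusted p = 0.921; 95% interval -0.33 to 0.04).

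Azin1 encodes antizyme inhibitor, a relative of ornithine decarboxylase without its activity that draws antizyme away (chr15:38487427-38519266, - strand). Normalized counts were 10409, 10255, 8274 and 6852 in WT and 9243, 9320, 7916 and 7407 in K187R samples. All K187R values lay within the WT range, and both samples of set 3 were lower than the other 6. For Azin1 the log2 fold change was -0.07 ± 0.142 (SE, n = 4 per group, limma adjusted p = 0.960; 95% interval -0.38 to 0.25). The summed level of 12 proliferation genes such as Mki67 was also lowest in set 3, at 103920 and 111640. The other 6 samples had 135990 to 187050. The myeloid sum was highest in set 3, at 61673 and 64664, of which Lyz2 made 54522 and 57778. Itgam and Cd68 were also highest there. Csf1r was lower in set 3 (2598 and 2423) than in set 2 (4220 to 5074). Cd14 was also highest in set 2, and Adgre1 was highest in K187R 3. The part of these genes in the Azin1 values was not tested.

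Sat1 encodes spermidine/spermine acetyltransferase, the first step of polyamine breakdown and export, and is X-linked (chrX:155213132-155216449, - strand). It had 12502, 13834, 11110 and 13028 normalized counts in WT and 10588, 12057, 11123 and 12394 in K187R samples. The lowest sample was K187R 1 and the highest WT 2, while WT 3 was lower than 3 of the 4 K187R samples. The log2 fold change was -0.13 ± 0.086 (SE, n = 4 per group, limma adjusted p = 0.921; 95% interval -0.32 to 0.07). The 3 samples of high Xist had 13834, 12057 and 11123 normalized counts and the other 5 had 10588 to 13028, so these overlapped as well.

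Paox encodes the peroxisomal oxidase of acetylated polyamines (chr7:140115799-140137224, + strand) and had the lowest level of the 10, also per kilobase of exon. Normalized counts were 473, 386, 528 and 566 in WT and 592, 484, 537 and 612 in K187R samples. WT 2 was the lowest and K187R 4 the highest, and the log2 fold change of 0.20 ± 0.142 (SE, n = 4 per group, limma adjusted p = 0.921) was the largest of the 10 in size. Its 95% interval, -0.12 to 0.51, was the only 1 of the 10 that reached beyond 0.5, so a 1.43-fold higher level in K187R cells lay within it.

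Dhps encodes deoxyhypusine synthase, which moves part of spermidine onto eIF5A (chr8:85071757-85075162, + strand). It had 1617, 1457, 1723 and 1779 normalized counts in WT and 1629, 1413, 1667 and 1712 in K187R samples. In both groups replicate 2 was lowest and replicate 4 highest. The log2 fold change was -0.03 ± 0.095 (SE, n = 4 per group, limma adjusted p = 0.969; 95% interval -0.25 to 0.18).

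**Figure D2:**
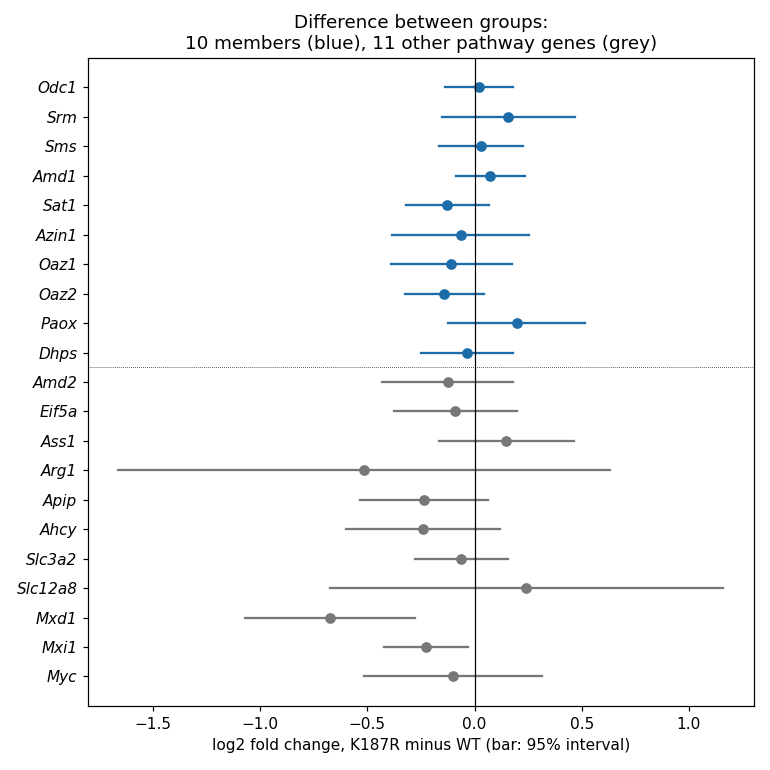
Log2 fold change, K187R minus WT, on the x axis for the 10 polyamine genes (blue) and 11 other pathway genes (grey), with points the limma estimate and bars its 95% interval. All 10 blue bars cross 0, and the bars of Mxd1 (-1.07 to -0.28) and Mxi1 (-0.42 to -0.03) lie below 0.

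The direction of the estimate for Odc1, Sms, Azin1 and Dhps turned when single samples were left out, and that of Amd1, Srm, Oaz1, Oaz2, Sat1 and Paox did not in any of the alternatives run. For Srm and Paox, every K187R sample was higher than every WT sample of its own set, a pattern found in 8.94% of all genes tested, and for Sat1 every K187R sample was lower, a pattern found in 4.93%. The other 7 genes were mixed. For Paox the log2 differences were 0.24 in set 1, 0.40 in set 2 and 0.11 in set 3. For Srm they were 0.15, 0.46 and 0.0046, so that in set 3 the 2 samples were nearly equal. For Sat1 they were -0.15, -0.26 and -0.07. With the set as a factor in limma, the estimates were 0.26 for Paox (unadjusted p = 0.0255, adjusted p = 0.539), -0.17 for Sat1 (0.0437 and 0.589) and 0.22 for Srm (0.104 and 0.704). In that fit 2 of the 10 genes had an unadjusted p below 0.05, against 8.21% of all genes tested, and 0 had an adjusted p below 0.05. Set 3 holds 1 sample of each group, and the difference within it has no replicate check.

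**Figure D3:**
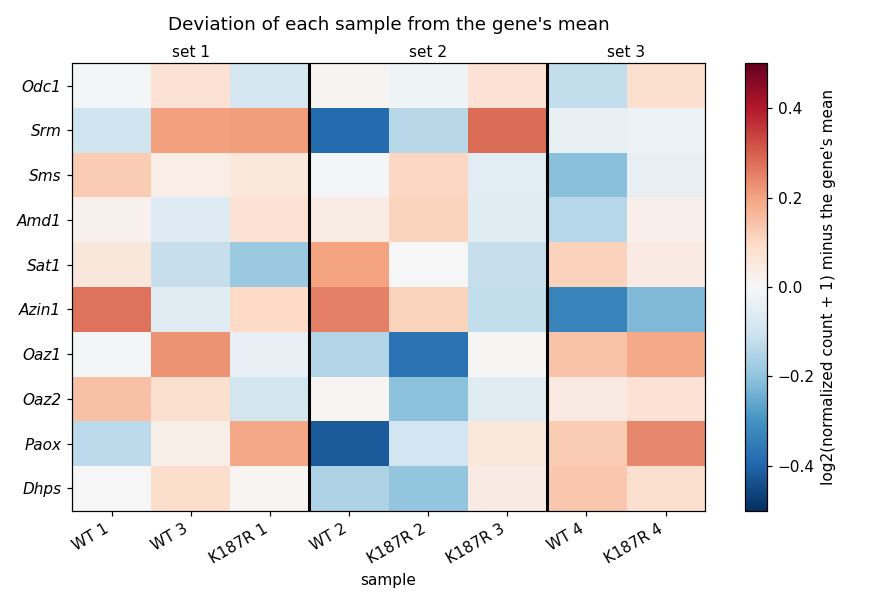
Deviation of log2(normalized count + 1) from the gene's mean over the 8 samples (colour), with genes in rows and samples in columns ordered by set. Azin1 is lowest in both samples of set 3, and WT 2 is low for Srm and Paox, at 1916 and 386 normalized counts.

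The level of a transcript per kilobase of exon allows the genes to be set beside each other. Odc1 had a mean of 6900 normalized counts per kilobase over the 8 samples, Sat1 4355 and Oaz1 3863. Srm had 1582, Azin1 1392, Amd1 1064 and Dhps 699. Oaz2 had 550, Sms 433 and Paox 106 normalized counts per kilobase. Thus the gene of the first synthetic enzyme was highest and that of the oxidase lowest. The ranges over the samples overlapped between Sat1 and Oaz1, between Srm and Azin1 and between Azin1 and Amd1. The ranges of Dhps and Oaz2 nearly met at 608. Both genes of a pair were measured in the same samples, and an overlap of ranges does not give their order within a sample. The lengths are all exon bases of GENCODE M21, not those of the transcripts in use.

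Several of the genes share sequence with copies elsewhere, and how the counting treated reads with several matches was not given in the sources used here. Of the 75-base windows of Amd1 transcripts, as long as a read, 72.5% were also found in transcripts of other genes, and 70.4% in Amd2 alone. Amd2 had 123 to 156 normalized counts against 3412 to 4063 for Amd1, and a log2 fold change of -0.13 ± 0.136 (SE, n = 4 per group, limma adjusted p = 0.924). The Amd1 and Amd2 values are uncertain to the extent that reads were split or dropped. For Paox the shared part was 25.6%, with 24.0% in Gm19680, for Oaz1 17.0% with Oaz1-ps, for Sms 16.9% and for Odc1 16.6% with several pseudogenes. It was 4.37% for Azin1, 3.37% for Oaz2, 2.32% for Dhps and 0.94% for Sat1, and 0 windows of Srm were shared. The copies Sms-ps, Oaz1-ps and Oaz2-ps had at most 923, 210 and 52.3 normalized counts in any sample. Exons of a gene on the opposite strand cover 5.72% of the Azin1 exon bases (Gm49077), 5.51% of Dhps (Wdr83) and 2.89% of Paox (Echs1), and without strand in the counting their reads there cannot be told apart.

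**Figure D4:**
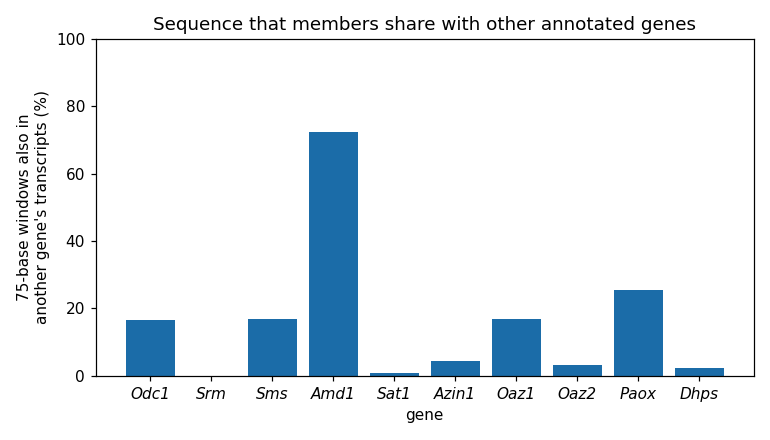
Share of the 75-base windows in the transcripts of each polyamine gene that also occur in transcripts of other annotated genes (y axis, percent). Amd1 stands at 72.5%, Paox at 25.6%, and Srm at 0.

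Around these genes, 46 others of the pathway were listed in 5 groups; 43 were in the data, 39 were tested and 4 were low. Of the 39, 0 were past the adjusted threshold in either direction, and 14 estimates were higher and 25 lower in K187R cells. An unadjusted limma p below 0.05 was reached by 2, both lower, against 4.39% of all genes tested. The groups did not overlap for 1, against 2.46% of all genes tested. For the other enzymes and the hypusine target, 0 of 6 passed, with a median log2 fold change of -0.03. Eif5a, the protein that receives hypusine, had 42448, 32599, 48780 and 36181 normalized counts in WT and 39424, 32473, 37804 and 39374 in K187R samples. Its values overlapped, and its log2 fold change was -0.09 ± 0.128 (SE, n = 4 per group, limma adjusted p = 0.935).

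Among genes of ornithine and arginine supply, 0 of 9 passed (median log2 fold change -0.02). Ass1, which encodes argininosuccinate synthase, had 10445 to 14638 normalized counts in WT and 12051 to 17487 in K187R samples. Arg1, the gene of the arginase that makes ornithine and that myeloid cells also express, had 1299, 822, 1236 and 2801 in WT and 1473, 555, 507 and 2129 in K187R samples. It was highest in set 3, where the myeloid sum, led by Lyz2, was highest. Csf1r and Cd14 of the same list were instead highest in set 2, and Adgre1 was highest in K187R 3. In set 2, with myeloid sums of 43815 to 49938, Arg1 was lower than in set 1, with sums of 20894 to 35580. The part of myeloid RNA in the Arg1 values was not tested. Of the methionine cycle and salvage genes, 0 of 10 passed (median 0.05), with the smallest p for Apip (log2 fold change -0.24), an enzyme of methionine salvage, and Ahcy (-0.24), which hydrolyses S-adenosylhomocysteine. In the transport list 0 of 4 passed (median -0.03). Slc3a2, the heavy chain of amino acid transporters, had 9049 to 11354 normalized counts in WT and 8840 to 10336 in K187R samples, and Slc12a8, a transporter gene, only 6.97 to 19.5 and 10.7 to 30.5.

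The Myc network was included since Myc and Max activate Odc1 and the Max-binding Mxd proteins oppose them. Of its 10 genes 0 passed, 8 estimates were lower and 2 higher, and the median log2 fold change was -0.09. Myc had 13043, 7807, 14994 and 9381 normalized counts in WT and 11096, 9905, 10495 and 9409 in K187R samples, and all K187R values lay within the WT range (log2 fold change -0.10 ± 0.185, SE, n = 4 per group, limma adjusted p = 0.950). Mxd1, a repressor that binds Max, had 13804, 9106, 14232 and 8028 normalized counts in WT and 6891, 6950, 6951 and 6634 in K187R samples. The groups did not overlap, as for 2.46% of all genes tested, all 4 K187R samples lying below the lowest WT sample, WT 4. The log2 fold change of Mxd1 was -0.68 ± 0.176 (SE, n = 4 per group), with an unadjusted limma p of 0.00366 and an adjusted p of 0.921. The exact two-sided permutation test gave 0.0286, the smallest p it can give, as it does for any gene whose groups do not overlap. Mxd1 was named because it had the smallest limma p of its list. Mxd1 was highest in WT 1 and WT 3, the 2 WT samples of set 1. There the summed proliferation genes were highest (187050 and 183760) and the myeloid sum lowest (20894 and 21275). Of the myeloid genes, Cd14 was lowest in K187R 1 (376) instead, and Cd68 was higher in WT 3 (1029) than in WT 2 (1021). The part of these genes in the Mxd1 values was not tested. Within the sets its log2 differences were -1.02, -0.39 and -0.28, and with the set as a factor in limma the estimate was -0.59 (unadjusted p = 0.000803, adjusted p = 0.239). Mxi1, another gene of this family, had 3518 to 4531 normalized counts in WT and 3336 to 3594 in K187R samples (log2 fold change -0.23 ± 0.088, SE, n = 4 per group, limma adjusted p = 0.921). Odc1 had levels within 1.15-fold in the same samples, and a link between the Mxd1 or Mxi1 values and Odc1 was not tested.

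The genes outside the pathway whose levels followed Odc1 most closely over the 8 samples were Rabgef1, Chmp4b and Eif4b, with root mean square differences of 0.0345, 0.0370 and 0.0387 on the log2 scale after centring. The SD of Odc1 itself over the samples was 0.070. For Sat1 they were Zfp54, Srpk2 and N4bp2l1, at 0.0499, 0.0548 and 0.0573, against an SD of 0.122. With 8 samples and small differences, such likeness is a description of these libraries only.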

How the data were processed

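RNA seq was analysed in 8 samples, 4 WT-ROR-γt and 4 K187R-ROR-γt, grouped by their labels. Per the study's methods, the authors trimmed paired-end reads with Cutadapt, aligned them to GRCm38 with HiSat2, counted them on GENCODE M15 with featureCounts and used DESeq2; the labels and the methods name different library kits. The deposited signal is reads per gene divided by 1 size factor per sample. All values gave whole reads (100% within 0.01 read), with 52456804 to 74676721 reads per sample, and 3 reads equal 2.54 to 3.56 normalized counts.

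Since the values are not counts, limma (lmFit, eBayes with trend) was run on log2(value + 1) over the 16982 genes averaging 10 or more, with Benjamini-Hochberg adjustment and a threshold of 0.05; fold changes are on that scale. Single genes were also tested by exact permutation. Alternatives were edgeR and DESeq2 on recovered reads, other pseudocounts (0.5 and 5), filters (none, and a mean of 50), scalings, eBayes without trend, the replicate number or sample set as a factor, and each sample left out. Sets came from average-linkage clustering on 2000 variable genes outside the pathway, with the tree cut at 3 sets. Positions and shared windows are from GENCODE M21, used in place of M15. The scripts were tested on simulated data. Tests ran in R 4.3.3 with DESeq2 1.42.0, edgeR 4.0.16 and limma 3.58.1, and tables and figures were made in Python 3.11.15 with matplotlib 3.10.9, pandas 2.3.3 and numpy 2.4.6. The polyamine genes and gene lists were chosen with earlier results of these data known. The other genes named were, for each pathway list, the 2 with the smallest limma p unless a gene passed, with Myc, Xist and Il17a, and the 3 genes most like Odc1 and Sat1; other marker genes, copies and overlapping genes were named after their values were seen. A result that the rule also names is not reported here.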

Additional observations from a re-analysis of the deposited data

How the results depend on the processing

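The count of polyamine genes past the threshold was 0 in the main analysis and in each of the 20 alternatives, and the smallest adjusted p of any of them was 0.419, for Srm with the replicate block in limma. Of the 200 estimates for these genes under the alternatives, 192 kept their direction and side of the threshold and 8 reversed, all 8 with a sample left out. Over samples left out in turn, the log2 fold change ran from -0.015 to 0.054 for Odc1, from -0.037 to 0.075 for Sms, from -0.187 to 0.014 for Azin1 and from -0.090 to 0.026 for Dhps. It reversed without WT 4 for Odc1 (-0.015), Sms (-0.037), Dhps (0.0056) and Slc12a8 (-0.037), without K187R 4 for Odc1 (-0.00043), without K187R 2 for Sms (-0.00084) and Dhps (0.026), without WT 1 and WT 2 for Azin1 (0.014 and 0.0073), without WT 3 for Eif5a (0.012) and Myc (0.052), and without K187R 3 for Slc12a8 (-0.059). The ranges were -0.182 to 0.012 for Eif5a, -0.059 to 0.419 for Slc12a8 and -0.262 to 0.052 for Myc, and Myc reversed to 0.020 with the sample set in limma.

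Over all genes tested the count was 0 in limma (746 at an unadjusted p below 0.05) and 0 in edgeR (729), 1 with the sample set in limma, 27 in DESeq2, 175 in DESeq2 with the replicate block, and 0 to 4 with a sample left out, the 4 without WT 4; the cause was not tested. The count of the other pathway genes was 0 in limma, edgeR and DESeq2 and 1 in DESeq2 with the replicate block. That gene was Mxd1, with an adjusted p of 0.000473 there, 0.0584 in DESeq2 and 0.945 in edgeR, and 0.187 to 0.9999 with a sample left out. Il17a, in no pathway list, was also past the threshold in DESeq2 with the replicate block (log2 fold change 0.74, adjusted p = 5.53e-07), and had an adjusted p of 0.409 in DESeq2, 0.945 in edgeR and 0.304 with the replicate block in limma. The replicate block in limma gave 0 genes over all genes tested, with 2046 at an unadjusted p below 0.05. Deviations of samples with the same number correlated at 0.592, 0.663, -0.092 and 0.630 for numbers 1 to 4, and for number 3 neither sample matched its own number best, so the numbers were not treated as pairs. The sample sets were the same when all tested genes outside the pathway were clustered and again cut at 3 sets. Those genes include the 2000 used first. The lowest value of the polyamine genes rests on 398 reads, and the part of depth in the width of their intervals was not tested.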
